A study of Mus musculus with 6 samples.

Results

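The enzymes described here run the methionine cycle and the routes that feed and drain it. They are 10 genes listed as enzymes of the methionine cycle, transsulfuration or betaine oxidation and found by symbol among the 16426 rows of the deposited table. All 10 were present, and all 10 had an adjusted p below 1, so none was lost to the authors' filtering. Liver RNA of 6 male C57/BL mice was sequenced in bulk. The labels describe 3 mice with liver fibrosis after 20% carbon tetrachloride, a liver toxicant, over 10 weeks, and 3 normal mice that received saline. A further group in the design, given the flavonoid didymin as well, was not analysed here.

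The single table compares 3 libraries called ly_A (set A below) with 3 called ly_B (set B). These names match no sample label, so neither set can be assigned to the fibrosis or the normal mice, and no value below is given as an effect of carbon tetrachloride. For the same reason the 18 columns of single libraries were not used. No level per library, depth, spread between libraries or standard error is therefore given, and whether the libraries of the sets overlap was not examined. The values are the authors' log2 fold change, read as set A over set B because the comparison names ly_A before ly_B, with their p and adjusted p. In the first lines of the table, seen on opening it, positive values went with higher library values of set A; that was used for the sign alone. The threshold for a call was an adjusted p under 0.05. In bulk tissue, fewer cells of a type and less RNA per cell cannot be told apart.

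In the methionine cycle, methionine is activated to S-adenosylmethionine, the methyl donor of most cellular methylation, and what is left after the methyl group is handed on is split into adenosine and homocysteine. Homocysteine then has 2 ways out. It can be methylated back to methionine, with the methyl group taken from folate or from betaine, the oxidation product of choline. It can also enter transsulfuration, which makes cysteine for glutathione and taurine. Betaine gives up its methyl groups in steps, by way of dimethylglycine and sarcosine, and the liver is the main organ in which these reactions run together.

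Within this pathway the differences between the sets were uneven. In the authors' deposited table, 5 of the 10 enzymes were higher in set A, 0 were higher in set B and 5 did not pass. Over all 14114 tested genes, 18.1% were called towards set A and 17.7% towards set B. Among 10 genes, 0 is a small count to set against the second share. The 10 enzymes were chosen with earlier results of these data known, and their counts are a description. The count of 0 towards set B was also 0 at an unadjusted p under 0.05, since the 5 enzymes under that limit, which 44.5% of all tested genes met, are the 5 called towards set A. Towards set A the count was 5 at an adjusted p under 0.01 (12.3% of all tested genes), 5 with adjustment over all rows (15.0% of them), 5 with Benjamini-Yekutieli adjustment (10.6%) and 4 when a 2-fold difference was also required (10.9%), where Sardh was lost. The median log2 fold change was 0.57 for the 10 enzymes and 0.07 for all tested genes. The called enzymes were Bhmt, Bhmt2, Ahcy, Cth and Sardh, and those that did not pass were Mat1a, Gnmt, Cbs, Chdh and Dmgdh.

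**Figure D1:**
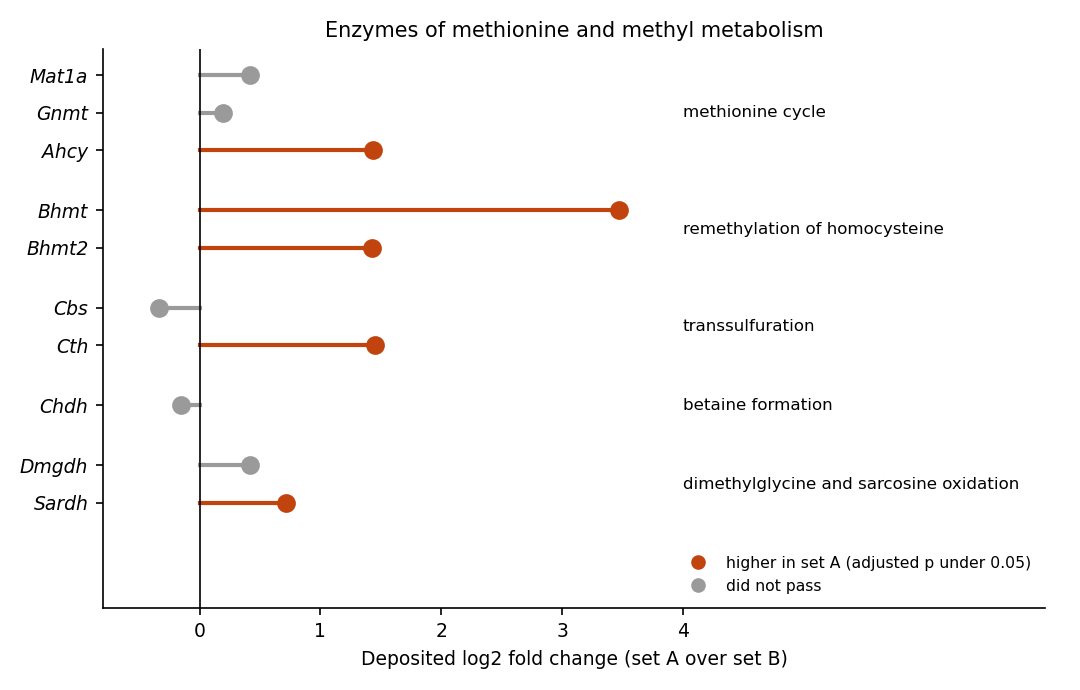
Deposited log2 fold change (x axis, set A over set B) of each of the 10 enzymes, grouped by role down the page. Orange marks the 5 enzymes called towards set A and grey those that did not pass, and no error bar is drawn because the authors' comparison columns hold none. Bhmt stands apart at 3.48, Cth, Ahcy and Bhmt2 lie between 1.43 and 1.45, and the 5 grey points lie between -0.34 and 0.42.

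The upstream sequences of the enzyme genes are shown first, because several of the genes lie together and because the member with the largest difference has a repeated short sequence before its start. They come from RefSeq on build GRCm38.p6, which differs from mm9, the build in the submitters' processing notes; the table itself holds no coordinates. A window was found for 8 of the 10 symbols, and Cth and Mat1a had no entry. Any entry under a member's symbol on a chromosome other than those named next was left out, but stayed in the count of all windows. By RefSeq, Sardh and Ahcy lie on chromosome 2, Cth on 3, Bhmt, Bhmt2 and Dmgdh on 13, Mat1a and Chdh on 14, and Cbs and Gnmt on 17. Each window is the 250 bases before the annotated start, printed 5′ to 3′ on the strand of the gene. Capitals mark AGGTCA, the half-site read by many nuclear receptors, and CCAAT, each on either strand (TGACCT and ATTGG on the other). The windows of Bhmt (chr13:93637759-93638008, minus strand), Ahcy (chr2:155074498-155074747, minus strand) and Gnmt (chr17:46729166-46729415, minus strand) are shown to set the called enzymes Bhmt and Ahcy beside Gnmt, an enzyme of the same cycle that did not pass.
Bhmt: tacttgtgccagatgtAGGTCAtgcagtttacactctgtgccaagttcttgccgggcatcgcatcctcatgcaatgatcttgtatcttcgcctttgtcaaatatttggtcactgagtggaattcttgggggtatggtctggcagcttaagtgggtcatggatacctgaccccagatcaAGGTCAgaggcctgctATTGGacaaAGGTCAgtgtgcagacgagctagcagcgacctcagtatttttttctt
Ahcy: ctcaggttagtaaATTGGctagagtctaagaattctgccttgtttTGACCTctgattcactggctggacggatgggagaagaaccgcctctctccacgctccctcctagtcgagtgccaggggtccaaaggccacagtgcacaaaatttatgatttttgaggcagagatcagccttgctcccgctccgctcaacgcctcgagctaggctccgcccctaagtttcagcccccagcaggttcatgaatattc
Gnmt: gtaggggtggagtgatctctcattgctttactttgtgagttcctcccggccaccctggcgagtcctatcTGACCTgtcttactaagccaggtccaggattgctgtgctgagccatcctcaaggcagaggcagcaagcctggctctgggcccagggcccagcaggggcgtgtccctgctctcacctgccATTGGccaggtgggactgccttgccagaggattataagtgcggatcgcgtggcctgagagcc

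In the Bhmt window AGGTCA stood 3 times, with first bases 234, 72 and 47 bases before the start, and a CCAAT match on the other strand began 56 bases before it. Ahcy, Gnmt and Sardh each held AGGTCA once, at 205, 181 and 204 bases before the start. Bhmt2, Dmgdh, Cbs and the 3 windows of Chdh held none. Of all 32851 windows of the same length in the table, 14.0% held AGGTCA on either strand and 33.8% held CCAAT. How many of them held AGGTCA 3 times was not counted. The TATA-like TATAAA, found in 12.4% of all windows, was in none of the members' windows. The E-box CACGTG, found in 6.02% of all windows, was in that of Cbs. These matches are descriptions of letters. They were seen in called enzymes and in Gnmt and Cbs, which did not pass, while Bhmt2, which was called, held none.

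Bhmt2 and Dmgdh start back to back. Their annotated starts lie 134 bases apart on opposite strands, with 133 bases between them, and their promoter windows, which run from 250 bases before to 50 after each start, overlap by 233 bases. The stretch between the starts (chr13:93674303-93674435, plus strand, the strand of Dmgdh) is shown because one piece of DNA lies before both genes. It is 69.9% G and C and holds 0 of the 4 motifs searched, so it is printed without capitals.
Bhmt2-Dmgdh: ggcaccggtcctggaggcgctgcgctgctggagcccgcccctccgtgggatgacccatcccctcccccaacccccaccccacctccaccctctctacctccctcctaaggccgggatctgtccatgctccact

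Homocysteine remethylation from betaine held the largest difference. Bhmt encodes the betaine-homocysteine methyltransferase, a cytosolic enzyme abundant in liver that moves a methyl group from betaine to homocysteine and leaves dimethylglycine. Per the authors' deposited table its log2 fold change was 3.48, or 11.1-fold higher in set A, with an adjusted p of 2.11e-05. That value lay at percentile 98.4 of all tested genes. Bhmt2, a relative that takes the methyl group from S-methylmethionine rather than betaine, stood at 1.43 by the authors' deposited table, or 2.69-fold (adjusted p = 1.65e-05). Bhmt2 had the smaller p of the pair although its difference was smaller. Whether the 2 genes differ from each other was not tested.

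The value of Bhmt has a limit that comes from its copies. Of the stretches of 50 bases in its longest protein-coding transcript in GENCODE M21, 61.5% also occur in transcripts of other genes, and 56.9% occur in Gm5096, which GENCODE tags as a retrogene. Gm5096 has its own row, and by the authors' deposited table it was called in the same direction, at 2.60 (adjusted p = 0.000481). How the authors counted reads that match both is not given in the sources used here, so the split between Bhmt and Gm5096 is uncertain. Bhmt and Bhmt2 shared little at this length, 0.410% of the stretches of Bhmt and 0.414% of those of Bhmt2.

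In the methionine cycle itself, the called difference was at the step after methylation. Ahcy encodes S-adenosylhomocysteine hydrolase, which removes the inhibitory by-product of methylation and releases homocysteine. By the authors' deposited table it stood at 1.44, or 2.71-fold higher in set A, with the smallest adjusted p of the 10 enzymes (1.23e-06). Mat1a encodes the liver form of methionine adenosyltransferase, which makes S-adenosylmethionine. Its value by the authors' deposited table was 0.41 (adjusted p = 0.32). Gnmt, glycine N-methyltransferase, uses up surplus S-adenosylmethionine by methylating glycine to sarcosine. It stood at 0.20 by the authors' deposited table (adjusted p = 0.684). A p above the threshold does not show that either gene was equal in the sets.

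Ahcy also has a close copy. Of its 50-base stretches, 77.0% occur in transcripts of other genes and 74.1% in Gm4737, again tagged as a retrogene by GENCODE. By the authors' deposited table, Gm4737 stood at 0.13 and did not pass (adjusted p = 0.803). The value of Ahcy therefore also depends on how shared reads were assigned. Mat1a, Gnmt and Cth had no such stretch in any transcript of another gene.

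The 2 enzymes of transsulfuration had values of opposite sign, and only that of Cth passed. Cbs, cystathionine beta-synthase, commits homocysteine to cysteine synthesis by joining it to serine. In the authors' deposited table it stood at -0.34, a fold of 1.26 towards set B that did not pass (p = 0.0543, adjusted p = 0.12). Cth, cystathionine gamma-lyase, splits the product of Cbs into cysteine and can also make hydrogen sulfide. Per the authors' deposited table it stood at 1.45, or 2.73-fold higher in set A (adjusted p = 0.000319). The difference between Cbs and Cth was not tested. Cbs was the lowest of the 10 values and lay at percentile 31.4 of all tested genes.

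Choline oxidation and the breakdown of dimethylglycine and sarcosine held smaller values. Chdh, the choline dehydrogenase of mitochondria, starts betaine formation. Its value of -0.15 by the authors' deposited table did not pass (adjusted p = 0.643). Of its 50-base stretches, 9.57% lie on the opposite strand of transcripts of Cacna1d, a calcium channel gene. Cacna1d stood at 0.94 by the authors' deposited table (adjusted p = 0.022). Whether reads were counted by strand is not given in the sources used here, so reads of the 2 genes may not be told apart there. Dmgdh and Sardh encode related mitochondrial flavoenzymes that oxidise dimethylglycine and sarcosine and pass one-carbon units to folate. Sardh stood at 0.72 by the authors' deposited table, or 1.64-fold higher in set A (adjusted p = 0.00377). Dmgdh stood at 0.42 by the authors' deposited table and did not pass (p = 0.0805, adjusted p = 0.163). Both also overlap an antisense transcript, AW495222 for Dmgdh at 5.74% of its stretches and Sardhos for Sardh at 3.11%.

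**Figure D2:**
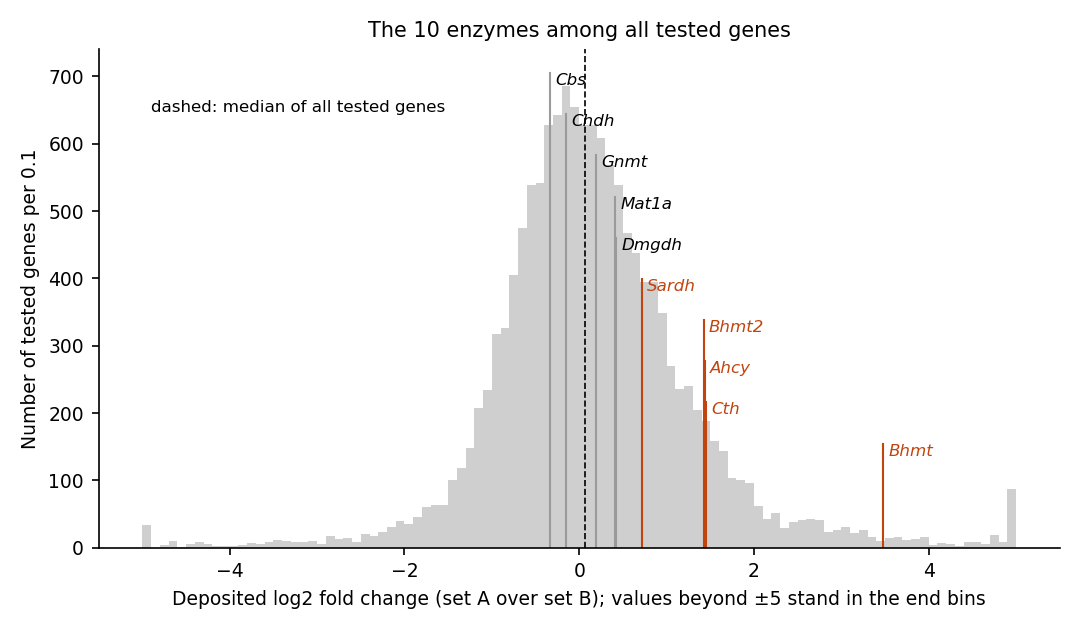
Histogram of the deposited log2 fold change (x axis, set A over set B) of all 14114 tested genes, with the number of genes per bin of 0.1 on the y axis. Vertical lines give the 10 enzymes, orange where called towards set A, and the height of a line carries no value. Bhmt stands in the right tail at percentile 98.4, Bhmt2, Ahcy and Cth lie close together near percentile 90, and Cbs and Chdh stand left of the dashed median.

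By size the order was Bhmt (3.48), Cth (1.45), Ahcy (1.44), Bhmt2 (1.43), Sardh (0.72), Dmgdh (0.42), Mat1a (0.41), Gnmt (0.20), Chdh (-0.15) and Cbs (-0.34), all log2 fold changes of the authors' deposited table. Cth, Ahcy and Bhmt2 lay between percentiles 89.5 and 89.9 of all tested genes and were not separated by size. Mat1a and Dmgdh, at percentiles 64.7 and 64.9, were likewise side by side. The order of neighbouring genes was not set against the spread between libraries.

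Bhmt, Bhmt2 and Dmgdh are neighbours on chromosome 13 in RefSeq order, so the genes beside them were read as well, a choice made after the values were seen. Of the 4 protein-coding entries on each side, 7 had a row in the table. By the authors' deposited table those 7, Papd4, Homer1, Jmy, Arsb, Lhfpl2, Scamp1 and Ap3b1, ranged from -0.47 (Homer1) to 0.40 (Lhfpl2), and none passed (smallest adjusted p = 0.194, Jmy). The remaining neighbour, Gm6109, was not analysed here. Dmgdh, with a value of 0.42, lay just above this range, while Bhmt2, which starts 134 bases from it, was called at 1.43.

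**Figure D3:**
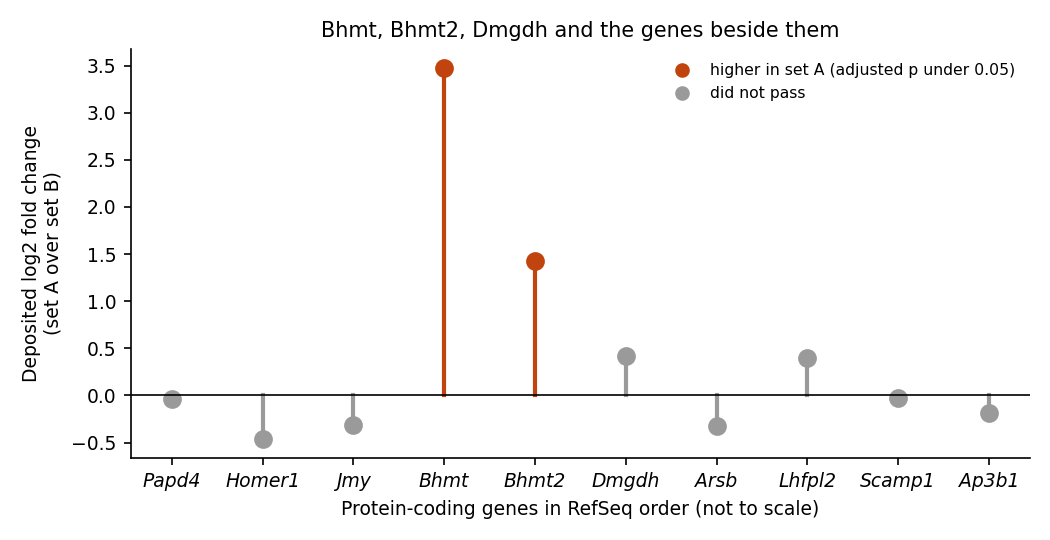
Deposited log2 fold change (y axis, set A over set B) of Bhmt, Bhmt2, Dmgdh and the 7 protein-coding neighbours with a row, in chromosomal order from left to right and not to scale. Bhmt at 3.48 and Bhmt2 at 1.43 are called towards set A, and the other points lie between -0.47 and 0.42.

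Around these enzymes, 78 further genes in 5 lists were read, of which 76 had a row and 75 were tested. In the authors' deposited table, 25 of the 75 were higher in set A, 14 were higher in set B and 36 did not pass. Together the calls came to 39, against 35.8% of all tested genes called in either direction, and to 23 with a 2-fold minimum, against 18.8%. By direction, 18.1% of all tested genes were called towards set A and 17.7% towards set B. The lists were chosen with earlier results of these data known, and their counts are a description.

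Other genes of the methionine cycle and of methionine salvage were called in both directions. Of 14 tested, 1 was higher in set A, 4 were higher in set B and 9 did not pass, with a median of -0.20. Among all tested genes the shares were 18.1% towards set A and 17.7% towards set B. The call towards set A was Apip, a dehydratase of methionine salvage, at 1.22 by the authors' deposited table (adjusted p = 1.36e-05). Mtr, the methionine synthase that takes its methyl group from folate, stood at -0.02 by the authors' deposited table (adjusted p = 0.97). Polyamine synthesis draws on S-adenosylmethionine, and 3 of the 4 enzymes listed for it were called towards set B, beside 17.7% of all tested genes. The 4 were no planned list of their own. Of them, 3 are named as largest calls of the methionine list, and Sms only to complete the 4. Per the authors' deposited table ornithine decarboxylase, Odc1, stood at -1.71, spermidine synthase, Srm, at -1.61 and S-adenosylmethionine decarboxylase, Amd1, at -1.38 (largest adjusted p = 5.99e-06). The remaining one, spermine synthase, Sms, stood at 0.42 by the authors' deposited table and did not pass (adjusted p = 0.456). Mat2a, the methionine adenosyltransferase found mainly outside the liver, was not analysed here.

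The folate list held the 3 largest differences among the 75 genes, all towards set B and all in mitochondrial enzymes. Of 20 tested, 7 were higher in set A, 4 were higher in set B and 9 did not pass, with a median of 0.32. The shares of all tested genes were 18.1% towards set A and 17.7% towards set B, so the count towards set B lay near its share. By the authors' deposited table Aldh1l2 stood at -4.92 (30.3-fold higher in set B), Mthfd1l at -3.50 (11.4-fold) and Mthfd2 at -2.80 (6.98-fold), with a largest adjusted p of 2.56e-06. These are fitted folds, and how many reads lay behind the lower set was not examined. Aldh1l2 oxidises formyl-folate, Mthfd2 makes formyl-folate from methylene-folate, and Mthfd1l releases formate from it. Their cytosolic relatives, named after the values were seen, had positive values. Aldh1l1 stood at 0.94 by the authors' deposited table (adjusted p = 0.00153) and Mthfd1 at 0.71 (adjusted p = 0.0191, or 0.193 with Benjamini-Yekutieli adjustment). Mthfd2l, a mitochondrial relative of Mthfd2, stood at 0.45 by the authors' deposited table and did not pass (adjusted p = 0.468). The mitochondrial serine hydroxymethyltransferase Shmt2 did not share the direction of Aldh1l2, Mthfd1l and Mthfd2, at 0.83 by the authors' deposited table (adjusted p = 0.00123), while cytosolic Shmt1 did not pass at 0.32 (adjusted p = 0.252). The differences within these pairs were not tested. Folr2, a folate receptor that also marks resident macrophages, was called towards set A at 2.24 by the authors' deposited table (adjusted p = 2.44e-06); the part of macrophage number in that value was not tested.

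Of 9 tested methyltransferases that consume S-adenosylmethionine, 4 were higher in set A, 0 were higher in set B and 5 did not pass. Among all tested genes, 18.1% were called towards set A and 17.7% towards set B, so 0 of 9 is a small count to set against the second share. All 9 log2 values were above 0, as were 7488 of all 14114, with a median of 0.59 beside 0.07 for all tested genes, and 6 of the 9 had an unadjusted p under 0.05. In the authors' deposited table Gamt, which makes creatine, stood at 1.75 (adjusted p = 8.55e-07) and Inmt, an amine N-methyltransferase, at 1.66 (adjusted p = 3.09e-15). Mettl7b stood at 0.61 and Pemt, which makes phosphatidylcholine from phosphatidylethanolamine, at 0.55 by the authors' deposited table (largest adjusted p = 0.008). Nnmt, which methylates nicotinamide, was just outside the threshold at 0.59 by the authors' deposited table (adjusted p = 0.0543).

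Genes for choline supply and for the electron carriers of Dmgdh and Sardh were mixed. Of 16 tested, 7 were higher in set A, 3 were higher in set B and 6 did not pass, with a median of 0.42. Beside these counts, 18.1% of all tested genes were called towards set A and 17.7% towards set B. Per the authors' deposited table Etfb, a subunit of the electron transfer flavoprotein that takes electrons from both enzymes, stood at 1.91 (adjusted p = 0.00132). By the same table Etfa stood at 0.56 (adjusted p = 0.0159), while Etfdh at -0.28 did not pass (adjusted p = 0.419). Gpcpd1, which splits glycerophosphocholine and so frees choline, stood at 1.50 and Slc6a12, a betaine transporter, at 1.14 by the authors' deposited table (largest adjusted p = 0.000577). Pdpr, a regulatory subunit of pyruvate dehydrogenase phosphatase that resembles Dmgdh in sequence, stood at -1.17 by the authors' deposited table (adjusted p = 0.0019). The remaining calls towards set B were Pcyt1a at -0.92 and Chka at -0.80 by the authors' deposited table (largest adjusted p = 0.0379). Etfa, Etfdh, Pcyt1a and Chka were named after their values were seen. Aldh7a1, which oxidises betaine aldehyde to betaine, stood at 0.16 by the authors' deposited table and, like Chdh, did not pass (adjusted p = 0.584).

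Downstream of transsulfuration, genes were called in both directions, also within the oxidation of sulfide and sulfite. Of 16 tested, 6 were higher in set A, 3 were higher in set B and 7 did not pass, with a median of 0.08. Calls among all tested genes came to 18.1% towards set A and 17.7% towards set B. By the authors' deposited table Gclc, the catalytic subunit of the first enzyme of glutathione synthesis, stood at -2.73 (6.65-fold higher in set B) and glutathione synthetase, Gss, at -1.29 (largest adjusted p = 0.000144). Gclm, the modifier subunit that pairs with Gclc and was named after its value was seen, stood at -0.27 by the authors' deposited table and did not pass (adjusted p = 0.28). Sqor, the sulfide quinone oxidoreductase, was also called towards set B, at -0.47 by the authors' deposited table (adjusted p = 0.0395), while Ethe1, which acts after it, stood at 1.10 (adjusted p = 3e-06) and the sulfite oxidase Suox at 0.64 (adjusted p = 0.0391), all 3 named after their values were seen. The calls of Sqor and Suox were lost at an adjusted p under 0.01. Mpst, a sulfurtransferase that yields sulfide, stood at 1.24 by the authors' deposited table (adjusted p = 1.3e-07). Mcee, an epimerase on the path by which the carbon of methionine enters the citric acid cycle, stood at 1.34 by the authors' deposited table (adjusted p = 1.37e-05). Cdo1, the cysteine dioxygenase that leads to taurine, stood at 0.58 by the authors' deposited table and did not pass (adjusted p = 0.0526).

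**Figure D4:**
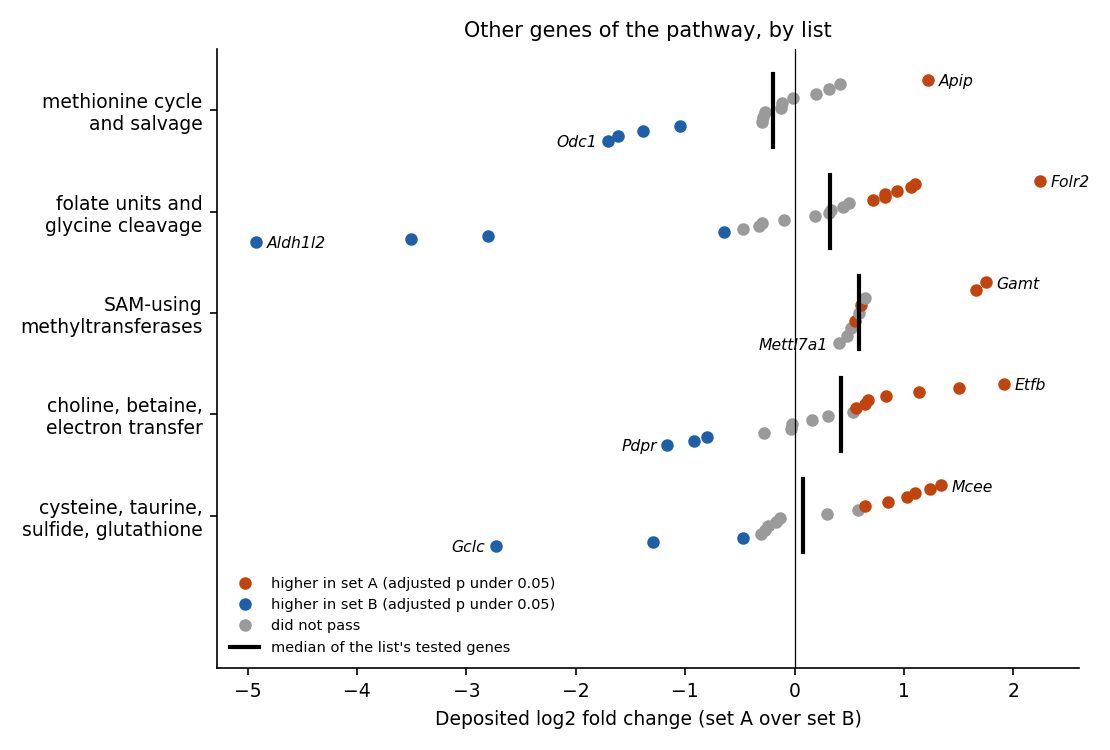
Deposited log2 fold change (x axis, set A over set B) of the 75 tested genes in the 5 pathway lists, 1 point per gene sorted by value within a list, with the lowest and highest gene of each list named. Orange points were called towards set A, blue points towards set B and grey points did not pass, and the black bar is the median of the list. Odc1, Srm and Amd1, then Aldh1l2, Mthfd1l and Mthfd2, and then Gclc and Gss are the blue points furthest left in their lists.

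Hepatocyte markers were read beside these values, since most of the 10 enzymes are made by hepatocytes. Of 6, 3 were higher in set A, 1 was higher in set B and 2 did not pass. For all tested genes the shares were 18.1% towards set A and 17.7% towards set B. Per the authors' deposited table Apoa1 stood at 1.22, Ttr at 1.07, Fabp1 at 0.66 and Apob at -1.07 (largest adjusted p = 0.0473, that of Fabp1, which was 0.0551 with adjustment over all rows), and Alb at 0.19 (adjusted p = 0.565) and Trf at 1.11 (adjusted p = 0.209) did not pass. The value of Bhmt was larger than that of any of the 6, and those of Ahcy, Cth and Bhmt2 also lay above that of Apoa1, the highest of the 6. Sardh, at 0.72 by the authors' deposited table, lay below Apoa1, Trf and Ttr. The enzymes that did not pass, from -0.34 (Cbs) to 0.42 (Dmgdh), lay within the range of the 6. The part of hepatocyte number in the values of the enzymes was not tested, and marker levels were not examined.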

How the data were processed

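Bulk RNA of 6 mouse livers was sequenced, with NEBNext libraries from Trizol-extracted RNA, per the labels' protocols. DESeq2 (version not stated) and build mm9 stand in the submitters' processing notes; aligner, counter and annotation: not given in the sources used here. Used from the deposited table were the authors' log2 fold change, p-value and adjusted p-value. A total of 18 columns of single libraries match no sample label and were not used, so the planned count model was not run and neither depth nor interval is given. The p-values set the difference between the sets against the spread between these libraries only.

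An adjusted p of exactly 1 stood in 2312 rows. For the remaining 14114, the authors' adjusted p-value equalled a Benjamini-Hochberg adjustment over those rows (largest relative difference 9.47e-13), and these rows count as tested. Members and lists were chosen with earlier results of these data known. Named genes are the 10 members, up to 4 called genes of each list with the largest difference, and some fixed by name; a few planned genes are not reported here or counted in the lists. Others are marked in the text or end a range. Alternatives were a threshold of 0.01, a 2-fold minimum, adjustment over all 16426 rows, Benjamini-Yekutieli adjustment and centring on the median. The adjustments were tested on simulated data. Motifs were searched in 250 bases, and shared transcript stretches counted at 50 bases against GENCODE M21 on both strands. Older symbols were matched through RefSeq. Computation used Python 3.11.15, pandas 2.3.3, numpy 2.4.6 and scipy 1.17.1.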

Additional observations from a re-analysis of the deposited data

How the results depend on the processing

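The 5 calls towards set A among the 10 enzymes were 5 at an adjusted p under 0.01, with adjustment over all rows, with Benjamini-Yekutieli adjustment and after centring on the median of 0.07, and 4 when a 2-fold difference was also required, since Sardh is below 2-fold. The count towards set B was 0 under each of these 5 alternatives. The stricter threshold, the 2-fold minimum and Benjamini-Yekutieli adjustment can only remove calls, so a count of 0 could not rise under them. Centring leaves the adjusted p-values as they were. The 39 calls of the pathway lists became 23 with the 2-fold minimum and ranged from 28 to 39 under the other 4. With the 2-fold minimum, calls towards set A became 3 in the folate list, 2 among the methyltransferases and 3 in the choline list. Pemt and Mettl7b also lost their call with that minimum, and Pemt with Benjamini-Yekutieli adjustment (adjusted p = 0.081). In the choline list, the 3 calls towards set B became 1 at an adjusted p under 0.01, with the 2-fold minimum and with Benjamini-Yekutieli adjustment. Among genes outside these counts or named after their values were seen, Fabp1 lost its call under every alternative but centring. Mthfd1, Etfa, Chka, Pcyt1a, Suox and Sqor lost theirs at an adjusted p under 0.01, with the 2-fold minimum and with Benjamini-Yekutieli adjustment. Aldh1l1 and Shmt2 lost theirs with the 2-fold minimum alone. Cacna1d, at 0.94 with an adjusted p of 0.022, met neither the 0.01 threshold nor the 2-fold minimum. Only centring alters the log2 fold change, and under it no member or gene named by rule changed direction. No paired analysis was possible because the library columns, which match no sample label, were not used, and leaving out each replicate was not run for the same reason.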
